A study of Mus musculus with 7 samples.

Results

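The 9 genes described here encode the Fc gamma receptors of the mouse (Fcgr1, Fcgr2b, Fcgr3 and Fcgr4), the adaptors Fcer1g and Tyrobp, the receptors Trem1 and Trem2, and the kinase Syk. They were chosen by name for their role in signaling through the immunoreceptor tyrosine-based activation motif (ITAM), and each matched 1 of the 57010 gene identifiers in the deposited counts. RNA was sequenced from mature white adipocytes freed by collagenase from the perigonadal fat of male mice. There were 3 FFA2 fl/fl libraries, from the floxed controls, and 4 Adipoq-F2-KO libraries, from littermates in which Cre recombinase under the adiponectin promoter deletes the floxed gene for the short-chain fatty acid receptor FFA2. Both genotypes were co-housed from birth, ate standard chow and were 20 weeks old. Since the Cre driver is active in adipocytes, immune cells of the Adipoq-F2-KO mice carry the floxed gene undeleted. The labels do not say whether a library held 1 mouse or a pool, so p-values measure the spread between these libraries. The comparison asks how the loss of adipocyte FFA2 altered this receptor system in the isolated adipocyte fraction on a diet that is not obesogenic.

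Fc gamma receptors bind the constant part of IgG and let phagocytes take up antibody-coated particles. The activating receptors Fcgr1, Fcgr3 and Fcgr4 need the FcR gamma chain, encoded by Fcer1g, whose ITAM is phosphorylated by kinases of the Src family and then docks Syk. Tyrobp encodes DAP12, a second ITAM adaptor, which serves TREM1 and TREM2, while Fcgr2b carries an inhibitory motif (ITIM) and restrains the same cascade. In fat these genes are known mainly from macrophages, and TREM2 marks the lipid-laden macrophages that gather around dying adipocytes.

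The 3 activating Fc gamma receptor genes share a short sequence just before their transcription start, and it is shown because the ETS factor PU.1, which binds many myeloid genes, recognizes a purine-rich core of this kind. The 60 bases before the RefSeq start are given 5′ to 3′ on the gene's own strand (RefSeq, build GRCm38.p6), with each match to the core GAGGAA, or to its reverse complement, in capitals.
Fcgr1, chr3:96293970-96294029, minus strand: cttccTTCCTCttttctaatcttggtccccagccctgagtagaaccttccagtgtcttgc
Fcgr3, chr1:171059404-171059463, minus strand: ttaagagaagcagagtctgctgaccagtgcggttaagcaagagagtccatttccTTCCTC
Fcgr4, chr1:171018866-171018925, plus strand: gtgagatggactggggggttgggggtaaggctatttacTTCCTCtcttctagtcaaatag
Trem2, chr17:48346341-48346400, plus strand: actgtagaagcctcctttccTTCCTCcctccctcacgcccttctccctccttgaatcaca
Fcgr2b, chr1:170976072-170976131, minus strand: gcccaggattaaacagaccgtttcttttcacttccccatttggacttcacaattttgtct
Fcer1g, chr1:171234350-171234409, minus strand: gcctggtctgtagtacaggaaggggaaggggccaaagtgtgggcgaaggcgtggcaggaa
The core lay on the minus strand relative to the gene in Fcgr1, Fcgr3, Fcgr4 and Trem2, and its first base was 55, 6, 22 and 40 bases before the start in that order. At the second RefSeq start of Fcgr3, which is not printed, the distance was 15 bases. The core was found, on either strand, in these 60 bases for 5 of the 8 members with a promoter window (Syk at its second start is the fifth). It was not found at the first start of Syk or in the 60 bases of Trem1, which are not printed. Counted in the same way, by gene and at any start, 7.02% of 27025 genes held it. In the full 250 bases before the start it was found for 6 of the 8 members and for 25.9% of all genes. The 60-base window was set after the sequences had been seen, so these shares are a description, and a match says nothing about binding. Tyrobp had no window in the table.

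Total counts per library lay between 30478997 and 39992605, and 85.5% to 88.8% of the low counts (1 to 49) were even, as happens when both mates of a pair are counted. A count of 0 then allows up to 0.150 to 0.197 CPM (counts scaled to the library total), taking 3 fragments as 6 counts, for counting error only. The targeted gene Ffar2 had 34.5 ± 2.77 normalized CPM in the controls (SD, n = 3) and 1.69 ± 0.634 in Adipoq-F2-KO libraries (SD, n = 4), and it fell (log2 fold change -4.36, standard error (SE) 0.22, edgeR quasi-likelihood adjusted p = 7.97e-06). Genes of the mitochondrial chromosome took 4.41% to 5.77% of the counts in the controls and 6.61% to 10.3% in Adipoq-F2-KO libraries, without overlap, and their part in the results below was not tested. Normalized CPM are CPM after TMM scaling. Of 17039 tested genes, 173 (1.02%) were called at an adjusted p under 0.05, 136 higher (0.798%) and 37 lower (0.217%) in Adipoq-F2-KO.

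None of the 9 members passed the test (0 called by edgeR's quasi-likelihood test, against 0.798% of all tested genes called higher). The estimate was nonetheless higher in Adipoq-F2-KO for each of the 8 that could be tested, by a log2 fold change of 0.51 to 0.78, where 50.4% of all tested genes had a positive estimate. Trem1 was too scarce to be tested. An unadjusted p under 0.05 was reached by 5 members (Tyrobp, Fcer1g, Fcgr3, Syk and Fcgr2b), each on the higher side, against 10.5% of all tested genes on that side and 7.37% on the lower side. For 3 of them, Tyrobp, Fcer1g and Fcgr3, each Adipoq-F2-KO library lay above each control, against 8.86% of all tested genes that lay higher without overlap and 8.72% that lay lower. The call depended on the tool. In simulated counts, described with the processing, 11.3% of the calls of DESeq2 were false, against 2.80% of those of edgeR. Those counts were drawn with the spread that edgeR had fitted and with changes larger than the members' estimates. The 2 shares therefore do not tell which of the calls in these data are false. DESeq2, the tool of the study's methods, called Tyrobp, Fcer1g and Fcgr3 (3 members, against 4.34% of all tested genes called higher and 5.82% called in either direction), edgeR with every gene of at least 1 count called those and Syk (4 members, against 3.76%), and limma voom called Tyrobp alone (1 member, against 0.974%). DESeq2 gave an adjusted p to 14704 of the 17039 genes, not to Fcgr4, and its shares are of all 17039. In bulk libraries more cells of a type and more transcript per cell cannot be told apart. The summed level of 15 macrophage markers, described further on, was also higher in each Adipoq-F2-KO library than in the controls. The same held for the summed endothelial, fibroblast progenitor, and mast cell and basophil markers.

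**Figure D1:**
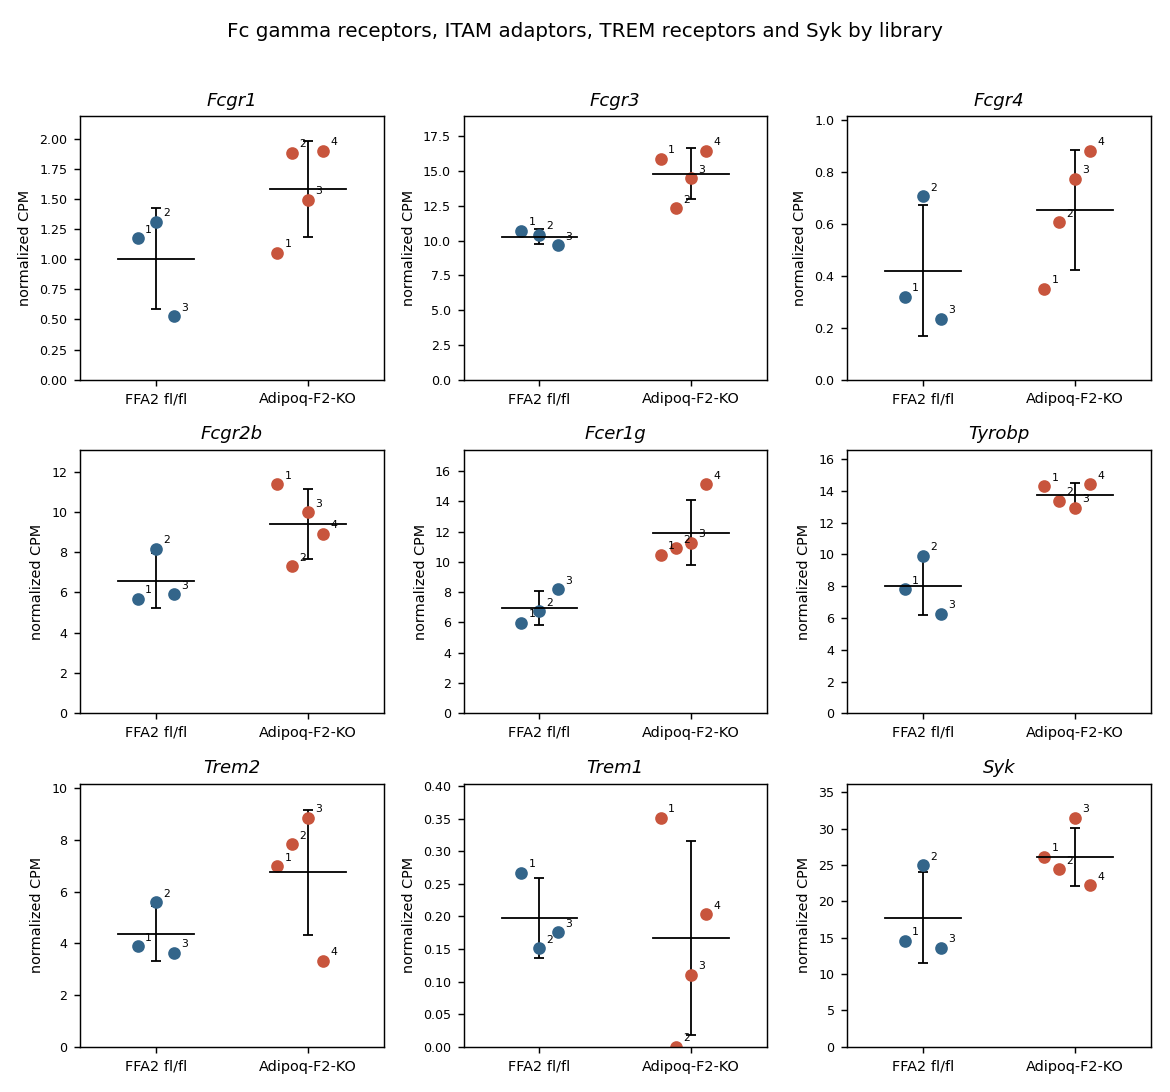
Normalized CPM (vertical axes, linear, each from 0) of the 9 members in the 3 FFA2 fl/fl libraries (blue) and the 4 Adipoq-F2-KO libraries (red), numbered by library, with the mean (line) and SD (bar). The red points of Tyrobp, Fcer1g and Fcgr3 all lie above the blue ones, and those of the other 6 genes overlap with them.

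The adaptors had the smallest p-values of the members. Tyrobp (ENSMUSG00000030579, chromosome 7 from 30113185 to 30117010, plus strand) had 7.80, 9.93 and 6.27 normalized CPM in FFA2 fl/fl libraries 1 to 3. It had 14.3, 13.4, 12.9 and 14.4 in Adipoq-F2-KO libraries 1 to 4. The lowest Adipoq-F2-KO library thus stood above the highest control, and the Adipoq-F2-KO libraries lay close together. The means were 8.00 ± 1.84 (SD, n = 3) and 13.8 ± 0.712 (SD, n = 4), with log2 fold change 0.78, SE 0.16 and edgeR adjusted p = 0.0519. The adjusted p of Tyrobp crossed the threshold under small changes of method, at 0.0493 with limma voom, 0.0479 with edgeR on library totals without TMM (1.06% of all tested genes called higher) and 0.0460 with edgeR on halved counts (1.33%), and it was 0.0015 with DESeq2. With any 1 library left out it was not called by edgeR (adjusted p 0.0552 to 0.243), and the log2 fold change stayed between 0.65 and 0.97.

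Fcer1g (ENSMUSG00000058715, chromosome 1 from 171057141 to 171061934, minus strand) had 5.98, 6.75 and 8.20 normalized CPM in FFA2 fl/fl libraries. It had 10.5, 10.9, 11.3 and 15.1 in Adipoq-F2-KO libraries 1 to 4. Here too the genotypes did not overlap, and Adipoq-F2-KO library 4 stood above the other 3. The means were 6.98 ± 1.13 (SD, n = 3) and 11.9 ± 2.15 (SD, n = 4), with log2 fold change 0.77, SE 0.18 and edgeR adjusted p = 0.0646 (DESeq2 adjusted p = 0.00504). With 1 library left out, the estimate for Fcer1g ranged from 0.64 without Adipoq-F2-KO library 4 (edgeR adjusted p = 0.0897) to 0.92 without FFA2 fl/fl library 3 (edgeR adjusted p = 0.145). An exact two-sided permutation test of the means over libraries gave p = 0.0286 for Tyrobp and for Fcer1g, the smallest p that 35 splits of 3 against 4 can give. For Fcgr2b, Fcgr1, Syk, Trem2, Fcgr4 and Trem1 the same permutation test gave p = 0.114, 0.143, 0.143, 0.2, 0.229 and 0.771. The ratio of Tyrobp to Fcer1g per kilobase of exon was 1.55 ± 0.483 (SD, n = 3) in the controls and 1.54 ± 0.225 (SD, n = 4) in Adipoq-F2-KO, so the difference between the genotypes was smaller than the spread within them.

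Among the activating receptors, Fcgr3 was by far the most abundant and the only one whose libraries separated. Fcgr3 (ENSMUSG00000059498, chromosome 1 from 170878743 to 170892504, minus strand), the low-affinity receptor for immune complexes, had 10.7, 10.4 and 9.67 normalized CPM in FFA2 fl/fl libraries. It had 15.9, 12.3, 14.5 and 16.5 in Adipoq-F2-KO libraries. The controls lay within a narrow band below each Adipoq-F2-KO library. The means were 10.3 ± 0.536 (SD, n = 3) and 14.8 ± 1.83 (SD, n = 4), with log2 fold change 0.53, SE 0.14 and edgeR adjusted p = 0.0936 (DESeq2 adjusted p = 0.0211). The exact permutation test gave p = 0.0571 for Fcgr3.

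Fcgr1 and Fcgr4 were scarce, so their estimates were wide. Fcgr1 (ENSMUSG00000015947, chromosome 3 from 96190225 to 96201285, minus strand), the high-affinity IgG receptor, had 44, 52 and 18 counts in FFA2 fl/fl libraries and 42, 62, 54 and 56 in those of Adipoq-F2-KO. Its log2 estimate was 0.65 (SE 0.45, edgeR adjusted p = 0.476), and Adipoq-F2-KO library 1 lay among the controls. With 1 library left out, it ranged from 0.36 without FFA2 fl/fl library 3 to 0.88 without FFA2 fl/fl library 2. Fcgr4 (ENSMUSG00000059089, chromosome 1 from 170846489 to 170857330, plus strand), which binds IgG2 subclasses, had 12, 28 and 8 counts in FFA2 fl/fl libraries and 14, 20, 28 and 26 in those of Adipoq-F2-KO. Its log2 estimate was 0.62 (SE 0.66, edgeR adjusted p = 0.665), and it ranged from 0.35 without FFA2 fl/fl library 3 to 1.22 without FFA2 fl/fl library 2. At this depth a difference in either gene of the size seen for Tyrobp was not detectable beyond the spread between libraries.

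The inhibitory receptor had an estimate on the same side as the activating ones. Fcgr2b (ENSMUSG00000026656, chromosome 1 from 170786186 to 170804116, minus strand) had 5.69, 8.17 and 5.92 normalized CPM in FFA2 fl/fl libraries. It had 11.4, 7.29, 9.98 and 8.92 in Adipoq-F2-KO libraries. Adipoq-F2-KO library 2 lay below FFA2 fl/fl library 2, so the genotypes overlapped. The means were 6.59 ± 1.37 (SD, n = 3) and 9.39 ± 1.72 (SD, n = 4), with log2 fold change 0.51, SE 0.20 and edgeR adjusted p = 0.213.

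The ratio of activating to inhibitory receptor transcripts differed between the genotypes by less than its spread. Per kilobase of exon, Fcgr1, Fcgr3 and Fcgr4 together were 7.00, 5.01 and 5.83 times as abundant as Fcgr2b in FFA2 fl/fl libraries. In Adipoq-F2-KO libraries they were 5.01, 6.60, 5.53 and 7.08 times as abundant. The means of this ratio were 5.95 ± 1.00 (SD, n = 3) and 6.06 ± 0.952 (SD, n = 4), a smaller difference than the spread within either genotype. Fcgr3 alone made up 70.8% to 79.8% of the 4 Fc gamma receptor genes per kilobase over the 7 libraries, and Fcgr2b 12.4% to 16.6%. These 4 genes are paralogs with stretches of similar sequence, and how reads that match several of them were counted is not given in the sources used here, so the split between them is uncertain.

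**Figure D2:**
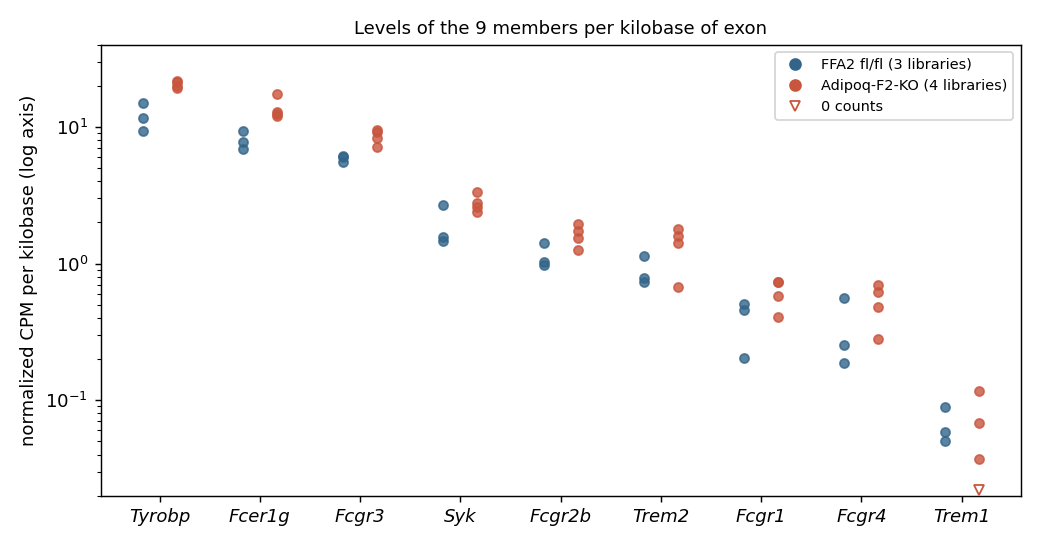
Normalized CPM per kilobase of summed exon length (vertical axis, log scale) for the 9 members, ordered by their mean, with 1 point per library (blue, FFA2 fl/fl; red, Adipoq-F2-KO). The open triangle marks the Adipoq-F2-KO library with 0 counts of Trem1. Tyrobp was the highest and Trem1 the lowest in both genotypes.

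Of the TREM receptors, Trem2 was measurable and Trem1 was near the limit of the depth. Trem2 (ENSMUSG00000023992, chromosome 17 from 48653429 to 48661175, plus strand), a lipid-sensing receptor of macrophages, had 3.90, 5.59 and 3.63 normalized CPM in FFA2 fl/fl libraries. It had 6.97, 7.84, 8.85 and 3.32 in Adipoq-F2-KO libraries. Adipoq-F2-KO libraries 1 to 3 lay above all controls, while library 4 was the lowest of the 7, although that same library was the highest for Tyrobp, Fcer1g, Fcgr1, Fcgr3 and Fcgr4. The means were 4.38 ± 1.06 (SD, n = 3) and 6.75 ± 2.41 (SD, n = 4), with log2 fold change 0.63, SE 0.31 and edgeR adjusted p = 0.313. With 1 library left out, the estimate for Trem2 ranged from 0.47 without Adipoq-F2-KO library 3 (edgeR adjusted p = 0.460) to 0.85 without Adipoq-F2-KO library 4 (edgeR adjusted p = 0.0951). Relative to its adaptor, Trem2 per kilobase was 0.0674 to 0.0781 of Tyrobp in the controls, 0.0658, 0.0789 and 0.0922 in Adipoq-F2-KO libraries 1 to 3, and 0.0311 in library 4.

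Trem1 (ENSMUSG00000042265, chromosome 17 from 48539796 to 48553952, plus strand), which amplifies inflammatory responses of neutrophils and monocytes, had 10, 6 and 6 counts in FFA2 fl/fl libraries. It had 14, 0, 4 and 6 in Adipoq-F2-KO libraries. The 0 in Adipoq-F2-KO library 2 allows up to 0.184 CPM, which is close to the mean of the controls (0.198 normalized CPM), so no difference in Trem1 was detectable at this depth and no fold change is given.

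Syk (ENSMUSG00000021457, chromosome 13 from 52737209 to 52802828, plus strand), the kinase on which both adaptors converge, had 14.6, 24.9 and 13.6 normalized CPM in FFA2 fl/fl libraries. It had 26.2, 24.4, 31.5 and 22.2 in Adipoq-F2-KO libraries. FFA2 fl/fl library 2 lay among the Adipoq-F2-KO libraries, and the other 2 controls lay below them. The means were 17.7 ± 6.27 (SD, n = 3) and 26.1 ± 3.96 (SD, n = 4), with log2 fold change 0.55, SE 0.20 and edgeR adjusted p = 0.191. With 1 library left out, the estimate for Syk ranged from 0.41 without FFA2 fl/fl library 3 (edgeR adjusted p = 0.470) to 0.88 without FFA2 fl/fl library 2 (edgeR adjusted p = 0.0599). FFA2 fl/fl library 2 was the highest control for 6 of the 9 members (Fcgr1, Fcgr2b, Fcgr4, Tyrobp, Syk and Trem2), and FFA2 fl/fl library 3 was the lowest for 6 (Fcgr1, Fcgr3, Fcgr4, Tyrobp, Syk and Trem2).

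**Figure D3:**
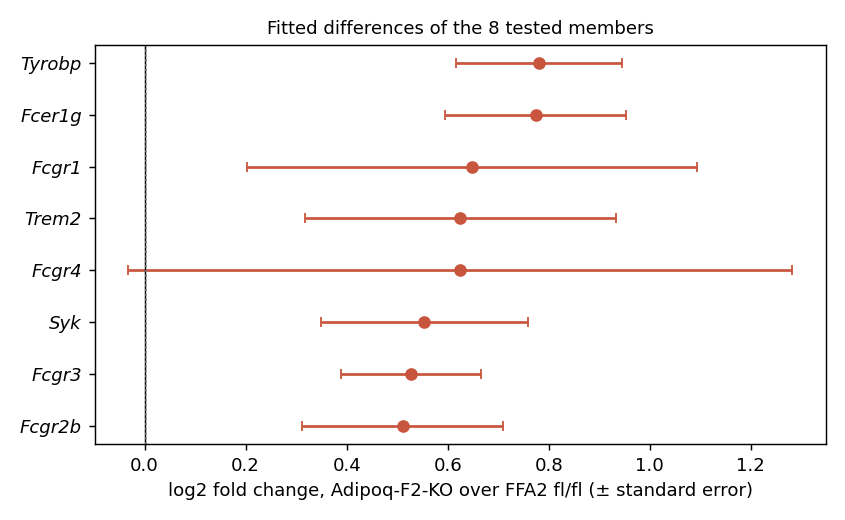
Log2 fold change of Adipoq-F2-KO over FFA2 fl/fl (horizontal axis) from edgeR, with a standard error derived from the F statistic (bars), for the 8 tested members. The solid line is 0 and the dotted line the median of all tested genes. The estimates lie between 0.51 (Fcgr2b) and 0.78 (Tyrobp), and the bars of the scarce Fcgr1 and Fcgr4 are the widest.

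Per kilobase of exon, the levels ran in the same order in both genotypes, namely Tyrobp, Fcer1g, Fcgr3, Syk, Fcgr2b, Trem2, Fcgr1, Fcgr4 and Trem1. In FFA2 fl/fl the means were 12.0 ± 2.76 normalized CPM per kilobase for Tyrobp, 7.99 ± 1.29 for Fcer1g, 5.91 ± 0.309 for Fcgr3 and 1.89 ± 0.669 for Syk (SD, n = 3). In Adipoq-F2-KO they were 20.6 ± 1.07 for Tyrobp, 13.7 ± 2.46 for Fcer1g, 8.52 ± 1.06 for Fcgr3 and 2.78 ± 0.423 for Syk (SD, n = 4). The adaptors were thus the most abundant and the receptors that need them lower. Fcgr2b and Trem2, and likewise Fcgr1 and Fcgr4, had overlapping libraries in both genotypes, and Trem2 and Fcgr1 overlapped in Adipoq-F2-KO, so these neighbours were not separated beyond their spread. The remaining neighbours did not overlap.

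Around the members, 179 further genes of the pathway were in the table, in 10 lists by role, and 152 of them were tested. Of these, 6 rose in Adipoq-F2-KO (3.95%, against 0.798% of all tested genes) and 0 fell. DESeq2 called 28 of them and limma voom 4, all 4 among the genes named next. The genes that rose included Clec4e, Prkcd, Nckap1l, Cybb and Sphk1. The median log2 fold change of the 152 was 0.32, with 114 positive (75.0%), beside a median of 0.0037 and 50.4% positive over all tested genes. Of all tested genes, 17.9% had an edgeR unadjusted p under 0.05 and 5.82% were called by DESeq2, in either direction. The counts given for each list below are to be read beside these shares. With 1 library left out the 6 calls were lost in part or in whole, down to 0 without FFA2 fl/fl library 1 or 3. Without Adipoq-F2-KO library 2 or 3 there was 1 call, and without FFA2 fl/fl library 2 there were 2. Cybb, Nckap1l and Clec4e are known mainly from myeloid cells, and the summed macrophage markers were higher in the same libraries, whose part in these calls was not tested.

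Of the 6 calls, 4 were in the machinery that phagocytes use to engulf and oxidize. In the list of phagocytic actin and NADPH oxidase genes, 4 of 21 tested genes rose, 0 fell and the median log2 fold change was 0.27. Cybb, the catalytic subunit of the phagocyte oxidase, had 10.1, 10.7 and 9.26 normalized CPM in FFA2 fl/fl libraries and 13.9, 21.1, 18.5 and 21.6 in those of Adipoq-F2-KO (log2 fold change 0.90, SE 0.16, edgeR adjusted p = 0.0382). Every Adipoq-F2-KO library stood above the controls. Nckap1l, the blood-cell member of the WAVE actin complex, rose by a log2 fold change of 0.88 (SE 0.18, edgeR adjusted p = 0.0476), and Sphk1, which makes sphingosine 1-phosphate, by 0.80 (SE 0.14, edgeR adjusted p = 0.0382). The most abundant genes per kilobase of this list, Arpc2 and Cdc42, which most cells use, had log2 fold changes of 0.11 and 0.15 (edgeR adjusted p = 0.590 and 0.421).

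In the list of CARD9 and NFAT outputs, 1 of 12 genes rose, 0 fell and the median log2 fold change was 0.55. Prkcd, the protein kinase C isoform between Syk and CARD9, rose from 24.7 ± 2.93 normalized CPM (SD, n = 3) to 43.6 ± 5.16 (SD, n = 4), with log2 fold change 0.82, SE 0.12 and edgeR adjusted p = 0.0332. Bcl10, the partner of CARD9, had a log2 fold change of 0.63 (edgeR adjusted p = 0.0647), and Nfatc1, the most abundant of the list per kilobase, 0.47 (edgeR adjusted p = 0.234).

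In the list of other receptors that pair with DAP12 or the FcR gamma chain, 15 of 32 genes in the table were tested, 1 rose and 0 fell, with a median log2 fold change of 0.64. The list also holds Hcst, Cd247 and Nfam1, which are not receptors of this kind, and the median is the value of Nfam1. The gene that rose was Clec4e, which encodes Mincle, a lectin signaling through the FcR gamma chain. It had 1.17, 0.756 and 1.23 normalized CPM in FFA2 fl/fl libraries and 4.31, 2.43, 4.65 and 7.05 in those of Adipoq-F2-KO (log2 fold change 2.13, SE 0.38, edgeR adjusted p = 0.0382). Its log2 fold change was thus larger than that of its adaptor Fcer1g (0.77), a difference between genes that was not tested. Cd300ld and Clec4d, the most abundant of the list per kilobase, had log2 fold changes of 1.05 and 1.13 (edgeR adjusted p = 0.118 and 0.159). In the list of hemITAM receptors 0 of 3 tested genes were called by edgeR (2 at an unadjusted p under 0.05, DESeq2 1). The beta-glucan receptor Clec7a had a log2 fold change of 1.09 (edgeR adjusted p = 0.0968). Clec2d, at -0.61 (edgeR adjusted p = 0.219), was in the list in error, since this lectin is not known to carry a hemITAM.

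**Figure D4:**
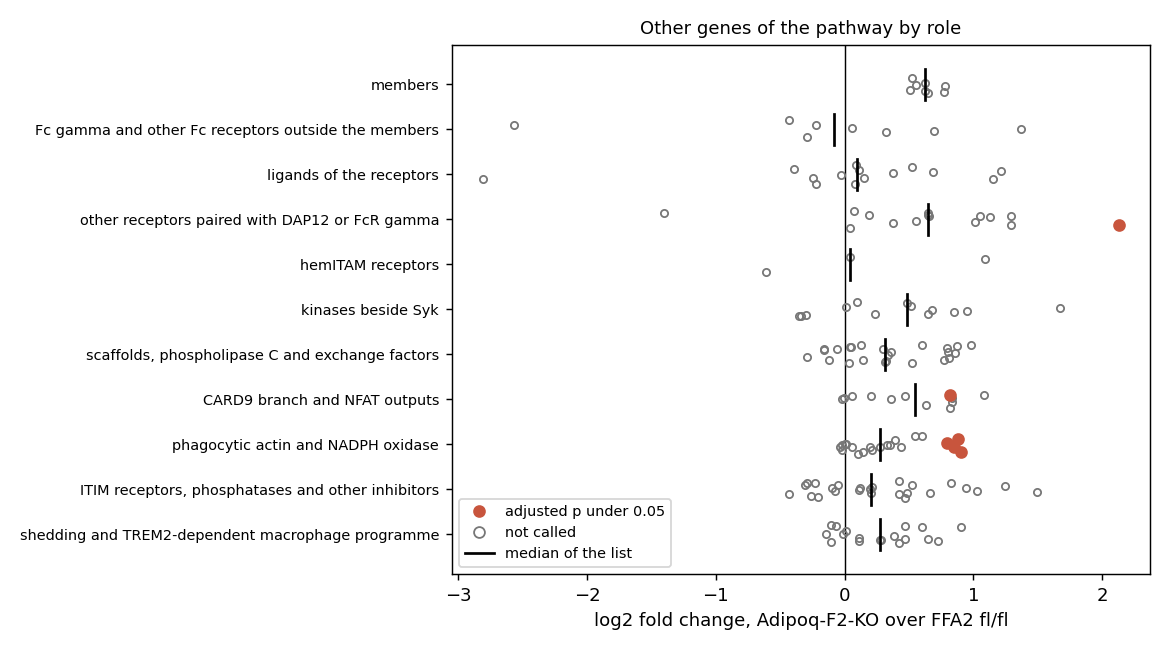
Log2 fold change of Adipoq-F2-KO over FFA2 fl/fl (horizontal axis) of each tested gene in the 10 lists of pathway genes, below the 8 tested members. Filled red points passed an adjusted p of 0.05 and black bars are list medians, between -0.08 for other Fc receptors and 0.64 for receptors paired with DAP12 or FcR gamma.

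No kinase beside Syk was called by edgeR (0 of 13, with 6 at an unadjusted p under 0.05 and 3 called by DESeq2), and the median log2 fold change was 0.49. The Src-family kinases Fyn, Yes1 and Lyn had log2 fold changes of 0.52, 0.65 and 0.49 (edgeR adjusted p = 0.0900, 0.113 and 0.136), and the adhesion kinase Ptk2b, the most abundant of the list per kilobase, had -0.35 (edgeR adjusted p = 0.192). In the scaffolds, phospholipase C and exchange factors 0 of 24 were called (10 at an unadjusted p under 0.05, DESeq2 6), with a median of 0.32. Its smallest p-values belonged to Pik3r5, at a log2 fold change of 0.79, and to Lcp2, the SLP-76 scaffold, at 0.86 (edgeR adjusted p = 0.0757 and 0.0792). Pik3r1 and Grb2, the most abundant per kilobase, had 0.34 and 0.14 (edgeR adjusted p = 0.285 and 0.400).

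The inhibitors that act on these cascades also held no call (0 of 25 tested by edgeR, 9 at an unadjusted p under 0.05, DESeq2 5), with a median log2 fold change of 0.21. The phosphatase Ptprj had a log2 fold change of 0.83 and the ITIM lectin Clec12a 1.03 (edgeR adjusted p = 0.0556 and 0.0622), whereas the phosphatase Ptpn11 had -0.23 and Tnfaip3, the NF-kB inhibitor A20, 0.21 (edgeR adjusted p = 0.199 and 0.691). Inpp5d, the phosphatase SHIP1 recruited by Fcgr2b, had 11.1 normalized CPM in the controls and 12.1 in Adipoq-F2-KO. Shedding enzymes and genes of the TREM2-dependent macrophage program held 0 calls of 18 by edgeR (8 at an unadjusted p under 0.05, DESeq2 2), with a median of 0.28. Mmp12, a macrophage elastase, had a log2 fold change of 0.91 and Adam17, which sheds TREM2, 0.47 (edgeR adjusted p = 0.0809 and 0.0824). Lpl and Cd36, which adipocytes also express at high levels, had -0.11 and 0.11 (edgeR adjusted p = 0.609 and 0.524).

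The lists of other Fc receptors and of ligands had medians near 0. Of other Fc receptors 0 of 8 tested genes were called by edgeR (4 at an unadjusted p under 0.05, DESeq2 0), and the median log2 fold change was -0.08. Fcgrt, the neonatal Fc receptor that recycles IgG and by far the most abundant of the list, had 269 ± 19.1 normalized CPM (SD, n = 3) in the controls and 230 ± 21.4 (SD, n = 4) in Adipoq-F2-KO (log2 fold change -0.22, SE 0.10, edgeR adjusted p = 0.262). Fcamr, the receptor for IgM and IgA, had 0.06, Fcrls 0.70 and Pigr -2.56 (edgeR adjusted p = 0.935, 0.179 and 0.216), and Pigr rested on FFA2 fl/fl library 1, with 20.8 normalized CPM against 0.293 to 2.10 in the other 6 libraries. Of the ligands 0 of 14 were called by edgeR (1 at an unadjusted p under 0.05, DESeq2 0), with a median of 0.10. Apoe, for a lipid-carrying protein that binds TREM2 and that adipocytes make, had -0.39 and the pentraxin Ptx3 0.38 (edgeR adjusted p = 0.253 and 0.290).

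Transcripts of other cells were present in the libraries. All 15 macrophage markers were tested, of which 2 rose (Lyz2 and Cd68) and 0 fell, 9 were higher and 1 was lower at an unadjusted p under 0.05, DESeq2 called 5 and the median log2 fold change was 0.35. The estimate was positive for 11 and negative for 4, namely Mertk (-0.42), Lyve1 (-0.38), Fcna (-0.27) and Cd163 (-0.12), and Mertk was the 1 with an unadjusted p under 0.05 (edgeR adjusted p = 0.152). Lyz2, lysozyme of myeloid cells and the most abundant per kilobase, rose by a log2 fold change of 0.69 (SE 0.12) and Cd68 by 0.72 (SE 0.14), with adjusted p = 0.0382 and 0.0416 from edgeR. With 1 library left out, Lyz2 was called in 3 and Cd68 in 1 of 7 analyses. Without FFA2 fl/fl library 1 or 3 neither was called (edgeR adjusted p = 0.201 and 0.155 for Lyz2, 0.227 and 0.164 for Cd68). Without Adipoq-F2-KO library 2 or 3 neither was called either. Cd68 was also not called without Adipoq-F2-KO library 1 or 4. The summed level of the 15 markers was 445 to 523 normalized CPM in the controls and 561 to 655 in Adipoq-F2-KO libraries, without overlap. The sums of endothelial, fibroblast progenitor, and mast cell and basophil markers, given below, did not overlap either. The part of the 15 macrophage markers in the members' values was not tested.

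Expressed as a share of the macrophage marker sum, 2 of the members, Tyrobp and Fcer1g, were higher without overlap, as were 2.14% of all tested genes expressed in the same way. Tyrobp was 1.75%, 2.05% and 1.199% of the sum in the controls and 2.34%, 2.39%, 2.19% and 2.20% in Adipoq-F2-KO libraries. Fcer1g was 1.34%, 1.39% and 1.57% in the controls and 1.71%, 1.94%, 1.90% and 2.31% in Adipoq-F2-KO libraries. The shares of the other 7 members overlapped, that of Fcgr3 at 1.85% to 2.40% and 2.20% to 2.59%. This share depends on which markers are summed, and it was not tested. The sum holds 11 markers with positive estimates and 4 with negative ones, among the latter Mertk (93.2 normalized CPM in the controls, 69.8 in Adipoq-F2-KO). The log2 fold changes of the 2 called markers, Cd68 (0.72) and Lyz2 (0.69), were close to those of Tyrobp (0.78) and Fcer1g (0.77).

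**Figure D5:**
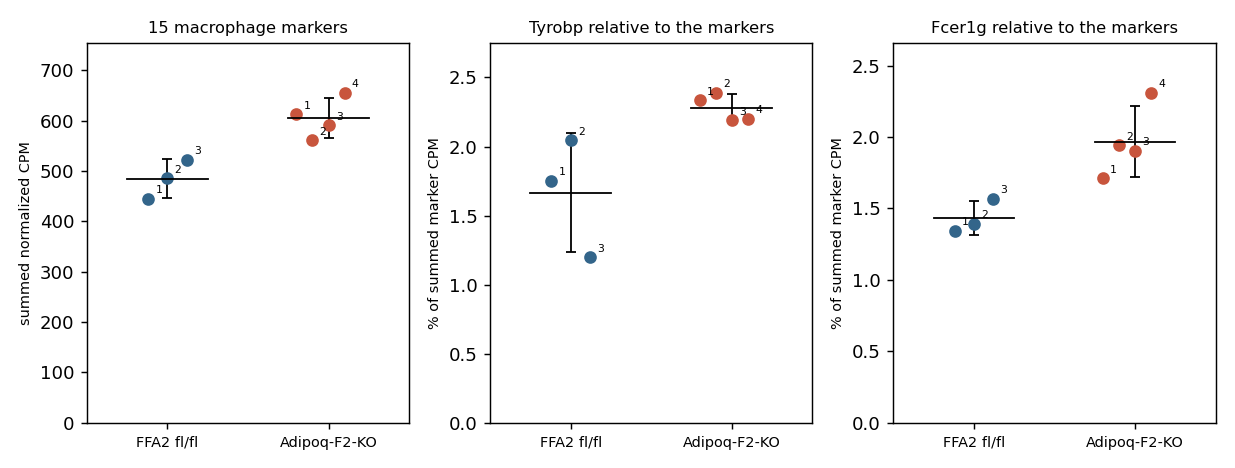
Summed normalized CPM of 15 macrophage markers (left) and Tyrobp and Fcer1g as a percentage of that sum (middle and right) in each numbered library, with the mean and SD, vertical axes from 0. In all 3 panels the 4 Adipoq-F2-KO libraries (red) lie above the 3 FFA2 fl/fl libraries (blue). The sum holds 11 markers with positive estimates and 4 with negative ones.

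Markers of other blood cells, several of which use the same adaptors, were measured too. The neutrophil marker Ly6g had 0 counts in all 7 libraries, and the 12 monocyte and neutrophil markers summed to 11.7 to 13.2 normalized CPM in the controls and 12.7 to 19.8 in Adipoq-F2-KO. The 12 markers of NK and T cells summed to 4.09 to 12.6 and 5.62 to 8.17, with overlap. Of the mast cell and basophil markers, Fcer1a was at 0 in all libraries and the sum was 13.5 to 15.6 and 17.7 to 34.97, without overlap, most of it Kit. Dendritic cell markers summed to 21.4 to 35.6 and 31.0 to 40.5, platelet markers to 5.65 to 7.499 and 7.47 to 13.0, and B cell markers to 874 to 942 and 641 to 935. The most abundant per kilobase were S100a8, Cd247, Kit, Clec10a, Pf4 and Ighm in the order of these lists, with log2 fold changes of -0.18, 0.04, 0.74, 0.28, 0.61 and -0.22. No marker of these 6 lists was called by edgeR (4 at an unadjusted p under 0.05 in all), limma voom also called 0 and DESeq2 called 2. Their part in the members' values was not tested.

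The libraries kept the profile of adipocytes, whose 10 markers summed to 42555 to 47762 normalized CPM in the controls and 32847 to 43395 in Adipoq-F2-KO libraries, led per kilobase by Cfd, with 9 of 10 lower by estimate and 0 called by edgeR (5 at an unadjusted p under 0.05, DESeq2 1). Endothelial markers had a median log2 fold change of 0.47 with 8 of 8 positive, fibroblast progenitor markers 0.34 with 7 of 8 and erythroid markers 0.59 with 5 of 5, again with 0 called in each by edgeR (6, 3 and 2 at an unadjusted p under 0.05, and 3, 0 and 0 called by DESeq2). Mesothelial markers had a median of -0.07, with 3 of 6 positive and 0 called by edgeR or DESeq2 (2 at an unadjusted p under 0.05). The most abundant per kilobase were Cldn5, Col3a1, Hbb-bs and Krt19 in the order of these 4 lists, with log2 fold changes of 0.46, 0.41, 0.53 and -2.49 (edgeR adjusted p = 0.115, 0.184, 0.343 and 0.162). Limma voom called 0 genes in these 5 lists. Endothelial markers summed to 963 to 1286 normalized CPM in the controls and 1348 to 2146 in Adipoq-F2-KO, without overlap. Fibroblast progenitor markers summed to 816 to 1092 and 1160 to 1352, also without overlap. Positive estimates were thus also common in the endothelial, fibroblast progenitor and erythroid lists. The same held for the tested markers of dendritic cells (6 of 7) and platelets (3 of 3). Monocytes and neutrophils, mast cells and basophils, and NK and T cells each had 3 of 5 positive. Positive estimates were not common in the lists of adipocytes, mesothelial cells or B cells (2 of 9 positive, median -0.24).

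Genes whose profile was most like that of the members were found by correlating each of 13501 other genes with the mean standardized log2 CPM of the 8 tested members across the 7 libraries. The highest Pearson coefficients belonged to Csf3 (0.986), Smarca5 (0.985), Cxcl2 (0.983), H2afz (0.981) and Rrm2 (0.980), with Spearman coefficients of 0.893 to 1.00. These values describe 7 libraries that share the difference between genotypes, and they carry no test. Csf3 and Cxcl2, a growth factor and a chemokine that act on neutrophils, had log2 fold changes of 2.04 and 0.84 (edgeR adjusted p = 0.0556 and 0.0542).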

How the data were processed

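Polyadenylated RNA of adipocytes (FFA2 fl/fl, 3 libraries, and Adipoq-F2-KO, 4 libraries) was sequenced as stranded read pairs. The authors used Trimmomatic for trimming, STAR for alignment and featureCounts for counting, and they deposited raw counts for each gene. Versions, strand and multi-mapping options are not given in the sources used here. The submitters' processing notes name GRCm38 and mm10, but the start of 0 of 9 members matched GRCm38, so gene positions are given as the deposited table has them, and promoter sequences alone are in GRCm38.p6 coordinates. The deposited exon length of each gene (other values in that table) was used for levels per kilobase. Symbols were matched for 52029 of 57010 identifiers.

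The main test was the two-sided quasi-likelihood test of edgeR 4.0.16 (R 4.3.3; filterByExpr, TMM, glmQLFit, glmQLFTest) with genotype as the only term, with Benjamini-Hochberg adjustment over 17039 genes. A gene was called at an adjusted p under 0.05. The standard errors of edgeR's log2 fold changes were derived as the absolute log2 fold change over the square root of the F statistic. The common biological coefficient of variation was 0.258. Alternatives were DESeq2 1.42.0, limma 3.58.1 (voom), other scaling, a filter of at least 1 count, halved counts, leaving out each library and a replicate block. The replicate numbers did not pair libraries (correlation of same-numbered deviations -0.0242 to 0.0315), and none of the libraries was a duplicate (chi-square per degree of freedom of 41.5 to 165 between libraries of a genotype). Simulated counts for this comparison were drawn from a negative binomial distribution with the dispersion trend that edgeR had fitted. With 200 of 17039 genes changed by a log2 fold change of 1, edgeR recovered 63.5% with 2.80% false calls. DESeq2 recovered 64.7% with 11.3% false calls, and limma voom 61.2% with 2.13%. The members, gene lists and tests were chosen with earlier results of these data known. Genes were named if they are members, are called within a list, or have the 2 smallest p-values or 2 highest levels per kilobase of a list. Marker lists name their most abundant and called genes and those at 0, and the 5 profiles most like the members were named. Inpp5d was added after its values were seen. A gene called within a list is not reported here by name.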

Additional observations from a re-analysis of the deposited data

Results flagged for a closer look

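Fcer1g stood out within the Adipoq-F2-KO group, where library 4 had 15.1 normalized CPM and the other 3 libraries 10.5 to 11.3. The gap between library 4 and its nearest neighbour was 0.834 of the range of the group, above Dixon's 95% critical value for 4 samples. Chance gives such a gap in about 1 of 20 groups, and 9 members and 15 ratios were screened. Without that library the log2 fold change of Fcer1g was 0.64 (edgeR adjusted p = 0.0897). Of the 7 libraries, Adipoq-F2-KO library 4 also had the highest mitochondrial share (10.3%) and the lowest adipocyte marker sum (32847 normalized CPM). Its macrophage (655) and endothelial (2146) marker sums were the highest, but not its dendritic, B, NK and T, or mesothelial sums. The part of these features in its Fcer1g value was not tested.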

How the results depend on the processing

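All 8 tested members kept a positive log2 fold change under each of the 14 alternatives, with the lowest at 0.35 (Fcgr4) and the highest at 1.22 (Fcgr4). The number of members called was 0 in the reported analysis, with relative log expression factors, with the replicate block and with any 1 library left out (0 to 0). It was 3 with DESeq2, 1 with limma voom, 1 with library totals only, 1 with halved counts and 4 with a filter of at least 1 count. The number of all genes called was 173, and it was 992 with DESeq2, 1403 with the filter of at least 1 count and 1 to 178 with 1 library left out. Of the pathway lists, 6 genes were called, against 28 with DESeq2, 36 with the filter of at least 1 count and 0 to 6 with 1 library left out. With the replicate block over libraries 1 to 3, which drops Adipoq-F2-KO library 4, 0 members, 7 genes of the lists and 223 of all genes were called. The numbers share no mouse or litter in the labels, so this block does not pair samples. Depth limited Trem1, at 0 to 14 counts per library, and Fcgr4, at 8 to 28.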
